A study of Mus musculus with 12 samples.

Results

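The 10 genes Klf2, Klf3, Klf4, Klf5, Klf6, Klf9, Klf10, Klf11, Klf13 and Klf15 genes of the Kruppel-like factor family of transcription factors were taken by symbol from a table of 19037 genes, and all 10 were found. Of these, 9 had enough counts to enter the test across 13346 genes. Klf2 did not, and its counts are described without a test. The genes were measured by RNA sequencing in AML12 cells, a mouse hepatocyte line derived from a mouse carrying a transforming growth factor alpha transgene. The study set an inhibitor of histone deacetylases against mutant deacetylases, in 4 groups of 3 libraries. The control libraries carry a GFP code in their labels. The FK228 libraries carry the same GFP code and received FK228 (romidepsin, an inhibitor of class I histone deacetylases), which the titles call HDI. The YF libraries overexpressed YF mutants of class I histone deacetylases, and the FK228+YF libraries had both. The labels state neither dose nor time, nor which enzymes were mutated or how the mutants were delivered, and all 4 groups come from 1 cell line.

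Kruppel-like factors bind GC-rich and CACCC sequences through zinc fingers at the end of the protein, and the rest of the protein decides which partner enzymes they bring to the gene. Klf3 recruits CtBP corepressors. Klf2, Klf4, Klf5 and Klf6 are mostly activators that work with histone acetyltransferases such as CBP. Klf9, Klf10, Klf11 and Klf13 bind Sin3, a scaffold that holds class I histone deacetylases. Klf15 controls amino acid breakdown and glucose production in the liver during fasting and is induced by glucocorticoids.

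The 12 libraries held 23664436 to 26122987 estimated counts each. As a check of the YF labels, Hdac1 stood at 97.7 ± 5.14 CPM (counts scaled to a common library size; SD, n = 3) in the control and 402 ± 18.9 in YF libraries, and reached 798 ± 2.16 in FK228+YF libraries. Hdac8 stood at 17.9 ± 0.567 and 42.1 ± 2.02 CPM in control and YF libraries. The other two class I genes were not called with YF: Hdac2 stood at 176 ± 7.6 and 189 ± 4.75 CPM (adjusted p = 0.165), and Hdac3 at 105 ± 2.66 and 113 ± 3.07 CPM (adjusted p = 0.13). Among the hepatocyte markers, the keratin genes Krt8 and Krt18 were at 665 to 1570 CPM in every group. Krt8 stood at 1420 CPM in the control and 665 CPM in FK228+YF libraries. Albumin (Alb) was at 0.0387 CPM in the control, so the line does not show the defining secretory marker of hepatocytes. Of 6 tested hepatocyte markers, 5 fell with the combination and 0 rose, where 38.6% of all genes fell. Hnf4a, a hepatocyte transcription factor, was at 177 CPM in the control and 28.7 CPM in FK228+YF libraries. Whether the 3 libraries of each group are separate cultures is not stated, and the p-values may therefore rest on technical spread alone. Markers of other cell types moved in the same groups. The 5 macrophage and leukocyte markers summed to 3.89 to 4.18 CPM in control and 48.4 to 57.2 CPM in FK228+YF libraries, mostly Cd68, while Adgre1 and Clec4f stayed at or near 0. The 7 mesenchymal and stellate markers summed to 7.67 to 10.5 and 32 to 40.1 CPM, mostly Des. Of 4 bile duct markers in the table, 3 fell with the combination, among them Krt19 (-2.51 on the log2 scale), where 38.6% of all genes fell. Their sum was 4870 to 4940 CPM in control and 4300 to 5120 CPM in FK228+YF libraries. It was mostly Spp1 (4180 and 4650 CPM on average), the marker that was not called. The part of these markers in the results on the Klf genes was not tested. In RNA from a whole culture, fewer cells of a type and less RNA per cell cannot be told apart.

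The promoters are shown to look for letters that factors of this family are known to bind. RefSeq promoters (GRCm38.p6) were found for 8 of the 10 genes. The 250 bases before the start are printed 5′ to 3′ for a CtBP-binding member and for 3 Sin3-binding members that moved in different ways. Capitals mark the CACCC box and the GC box (GGGCGG) on either strand, and the capitals run together where boxes touch or overlap.
Klf3 (chr5:64803271-64803520, plus strand): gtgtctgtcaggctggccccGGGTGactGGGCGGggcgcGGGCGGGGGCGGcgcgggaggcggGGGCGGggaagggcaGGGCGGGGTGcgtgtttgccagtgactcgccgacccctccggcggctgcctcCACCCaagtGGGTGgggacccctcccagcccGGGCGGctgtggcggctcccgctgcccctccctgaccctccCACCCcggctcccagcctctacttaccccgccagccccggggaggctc
Klf13 (chr7:63938916-63939165, minus strand): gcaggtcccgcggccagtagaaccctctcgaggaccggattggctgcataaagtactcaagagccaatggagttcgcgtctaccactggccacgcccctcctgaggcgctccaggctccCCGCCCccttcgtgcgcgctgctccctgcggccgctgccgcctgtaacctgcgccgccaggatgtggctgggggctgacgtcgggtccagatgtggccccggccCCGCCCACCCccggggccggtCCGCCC
Klf11 (chr12:24651121-24651370, plus strand): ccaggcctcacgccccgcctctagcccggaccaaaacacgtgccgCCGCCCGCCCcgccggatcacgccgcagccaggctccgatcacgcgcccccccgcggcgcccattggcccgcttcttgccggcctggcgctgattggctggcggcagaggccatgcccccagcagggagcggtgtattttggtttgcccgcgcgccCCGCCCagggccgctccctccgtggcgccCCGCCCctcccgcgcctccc
Klf9 (chr19:23140976-23141225, plus strand): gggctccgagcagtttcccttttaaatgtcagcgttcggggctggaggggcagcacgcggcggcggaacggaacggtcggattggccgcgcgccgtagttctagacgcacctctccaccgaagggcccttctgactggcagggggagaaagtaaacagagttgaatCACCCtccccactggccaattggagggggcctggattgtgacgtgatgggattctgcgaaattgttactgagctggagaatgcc
The Klf3 promoter held 5 CACCC boxes and 6 GC boxes in these bases, with a GC content of 78.4%. The Klf13 promoter held 1 CACCC box and 3 GC boxes. The Klf11 promoter held 4 GC boxes and no CACCC box, and the Klf9 promoter 1 CACCC box and no GC box. Over the 8 promoters, a CACCC box was in 5 and a GC box in 7, against 52.0% and 32.7% of all 32851 promoters searched over the same length. An E box (CACGTG) was in 4 of 8 against 6.0% of all promoters, and a TATA box (TATAAA) was in 0 of 8 against 12.4%. The GC content of the 8 promoters ran from 59.6% to 78.4%, where the median promoter had 52.4%. Their ratio of observed to expected CG pairs ran from 0.6 to 1.15, where the median promoter had 0.37. GGGCGG and CACGTG both hold a CG pair, and the promoters searched were not matched for base content. The part of base content in these shares was not tested. These matches describe letters in a window and are not shown to be bound.

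Between genes, levels were compared in TPM, a unit that allows for transcript length as well as depth. In the control, Klf3 was the highest of the 10 at 30.5 ± 5.76 TPM (SD, n = 3), above 81.8% of all genes in the table. Klf10 (19.2 ± 1.00 TPM) and Klf6 (18.9 ± 1.27 TPM) followed, and their libraries overlapped. Klf9 stood at 12.1 ± 1.06 TPM, apart from its neighbours. Klf13 stood at 9.40 ± 2.00 TPM, below Klf9 and above Klf15 in all libraries. Its lowest library (7.09 TPM) lay under the highest of Klf5 (7.5 TPM). Klf15 (6.50 ± 0.242 TPM) and Klf5 (6.47 ± 0.933 TPM) overlapped. Klf4 (3.72 ± 0.401 TPM) and Klf11 (2.47 ± 0.477 TPM) were lower, and Klf2 stood at 0.02 TPM, near 0.

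**Figure D1:**
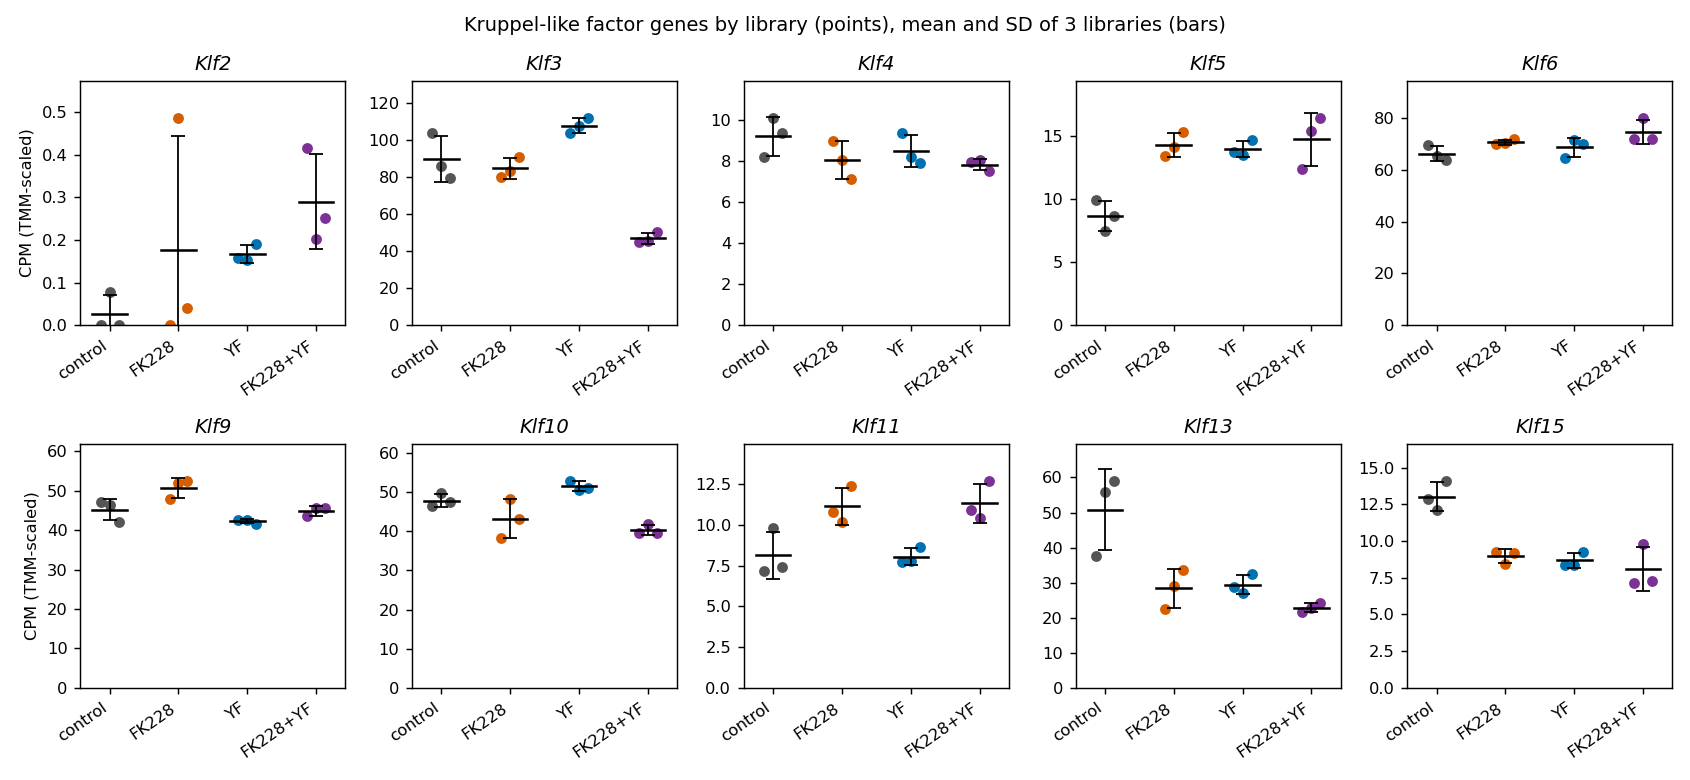
Level of each of the 10 genes in CPM (vertical axis, TMM-scaled counts, each panel with its own scale from 0) in the 12 libraries by group. Points are libraries and bars are the mean and SD of 3. Klf3 is lowest in the 3 FK228+YF libraries (45.0 to 50.4 CPM), Klf5 is higher and Klf13 and Klf15 are lower in all 3 treated groups than in the control, and Klf2 does not pass 0.486 CPM.

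Against the control, FK228 raised 3 of the 9 tested genes (Klf5, Klf9, Klf11) and lowered 2 (Klf13, Klf15), where 68.8% of all genes tested changed at an adjusted p under 0.05 (33.2% higher and 35.5% lower). The YF mutants raised 2 (Klf3, Klf5) and lowered 2 (Klf13, Klf15), where 32.6% of all genes changed. The combination raised 3 (Klf5, Klf6, Klf11) and lowered 4 (Klf3, Klf10, Klf13, Klf15), where 77.4% changed. These shares of members are not far from the background in any of the 3 comparisons. Libraries of the compared groups did not overlap for 6, 4 and 8 of the 9 genes, against 69.6%, 44% and 78.7% of all genes. The median log2 fold change of the 9 genes was -0.09 under FK228, -0.01 under YF and -0.24 under the combination, beside medians of -0.02, 0.01 and 0.01 over all genes. Klf5, Klf13 and Klf15 were called in all 3 comparisons and Klf4 in none. The share of all genes called in all 3 or in none is not given. These patterns are therefore no sign of a trait of the family. The 3 comparisons share the control libraries. All log2 fold changes, standard errors and adjusted p-values are from edgeR's quasi-likelihood test with Benjamini-Hochberg adjustment.

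**Figure D2:**
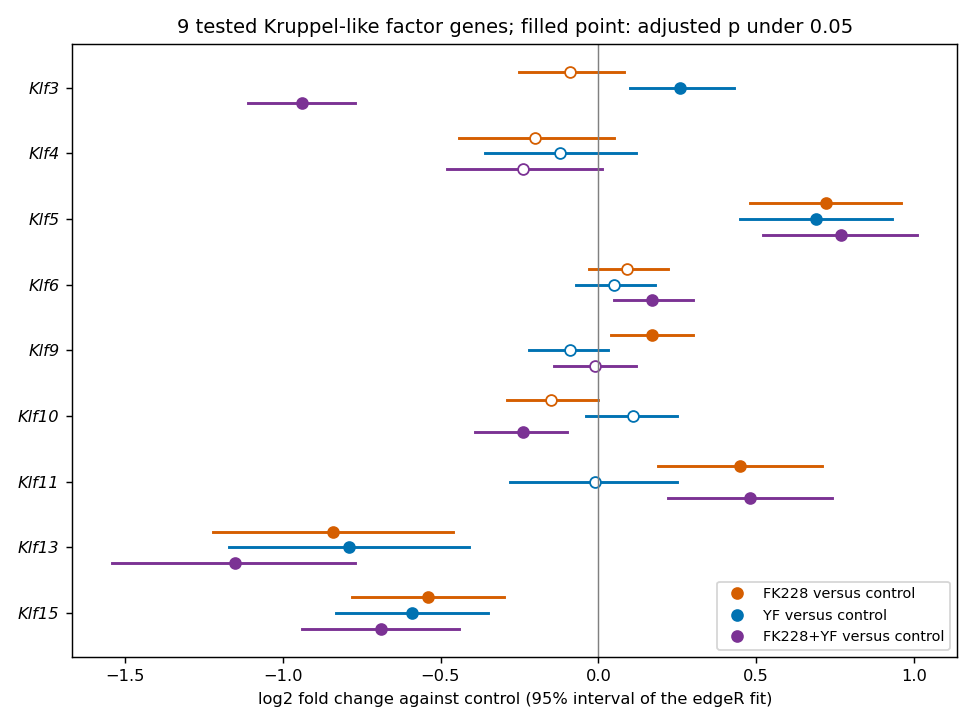
Log2 fold change against the control (horizontal axis) of the 9 tested genes (rows) for FK228, YF and FK228+YF, with the 95% interval of the edgeR fit. Filled points have an adjusted p under 0.05. Klf5 lies between 0.69 and 0.77 in all 3 comparisons, Klf13 and Klf15 lie below 0 in all 3, and Klf3 lies at -0.09, 0.26 and -0.94.

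Klf3 (gene 16599; chr5:64803521-64832901), which recruits CtBP to silence genes, fell with the combination but not with either treatment alone. Its level was 104, 86.2 and 79.9 CPM in the control libraries, 80.2, 83.3 and 91.2 CPM with FK228, 104, 108 and 112 CPM with YF, and 45.0, 45.4 and 50.4 CPM under the combination. The FK228+YF libraries were below every other library, and the control libraries spanned the FK228 range. The log2 fold change against the control was -0.94 ± 0.08 (SE; adjusted p = 2.26e-09) with both, a level 1.92-fold lower. FK228 alone gave -0.09 ± 0.08 (adjusted p = 0.347; 95% interval -0.25 to 0.08), a value that became 0.03 without control replicate 1. YF alone gave a rise of 0.26 ± 0.08 (adjusted p = 0.0154), although its lowest library reached only the level of control replicate 1. That rise was no longer called without control replicate 2 (adjusted p = 0.0649), control replicate 3 (0.0994) or YF replicate 3 (0.0633). The combination differed from FK228 alone by -0.85 on the log2 scale (adjusted p = 6.08e-08) and from YF alone by -1.20 (adjusted p = 8.38e-11).

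Gm38457 overlaps Klf3 in the annotation, and the sources do not say whether counting used strand. Gm38457 stood at 5.54 ± 0.877 CPM in the control and 3.46 ± 0.309 CPM with both, and it also fell (-0.68 ± 0.15, adjusted p = 0.000415). Reads of the 2 genes cannot be told apart without strand, and its level was a small part of that of Klf3 (90.1 ± 12.6 CPM in the control).

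Among the activators, Klf5 rose to a similar level under each treatment, Klf6 changed little, Klf4 was not called, and Klf2 was barely detected. Klf5 (gene 12224; chr14:99298691-99313412), a factor of proliferating epithelia, stood at 9.88, 7.47 and 8.63 CPM in the control. It stood at 13.4, 14.1 and 15.3 CPM with FK228, 13.7, 13.5 and 14.7 CPM with YF, and 12.4, 15.4 and 16.4 CPM with both. Every treated library was above every control library, while the 3 treated groups overlapped one another. The rise on the log2 scale was 0.72 ± 0.12 with FK228 (SE; adjusted p = 1.3e-05), 0.69 ± 0.12 with YF (adjusted p = 0.000107) and 0.77 ± 0.12 with both (adjusted p = 3.82e-06). The combination did not differ detectably from FK228 alone (0.05, 95% interval -0.19 to 0.28) or from YF alone (0.08, -0.15 to 0.31).

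Klf6 (gene 23849; chr13:5861489-5870393), an injury-response factor of the liver, was at 69.4, 65.2 and 63.9 CPM in the control and 71.8, 79.9 and 71.8 CPM with both. FK228 libraries held 69.9, 70.2 and 71.8 CPM and YF libraries 64.6, 71.4 and 69.9 CPM. The FK228+YF libraries were above all control libraries by a small margin. The rise with both was 0.17 ± 0.06 (adjusted p = 0.0137), and the call was lost without control replicate 3 (0.14, adjusted p = 0.064) or without FK228+YF replicate 2 (0.12, adjusted p = 0.101). FK228 alone gave 0.09 (adjusted p = 0.172) and YF alone 0.05 (adjusted p = 0.539).

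Klf4 (gene 16600; chr4:55527137-55532475), a factor of epithelial differentiation, had 8.21, 10.1 and 9.37 CPM in the control and 8.98, 8.05 and 7.15 CPM with FK228. YF libraries held 9.37, 8.23 and 7.92 CPM, and FK228+YF libraries held 7.96, 8.04 and 7.51 CPM. The FK228+YF libraries lay just under the lowest control library, and the other groups overlapped the control. The fitted differences were -0.20, -0.12 and -0.24 on the log2 scale, with 95% intervals reaching from -0.48 to 0.12 over the 3 comparisons. With both treatments the adjusted p was 0.0728, and 0.0239 without control replicate 1.

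Klf2 (gene 16598; chr8:72319062-72321654), best known in endothelial cells and lymphocytes, had 0, 2 and 0 counts in the control libraries and 0, 12 and 1 with FK228. YF libraries had 4, 4 and 5 counts, and FK228+YF libraries 10, 5 and 6. In the FK228 group, 12 of the 13 counts came from 1 library. The ratio of depth-scaled counts to the control was 11.2 with both (95% counting interval 2.74 to 98.6) and 6.47 with YF (1.47 to 59.1), intervals that cover counting error only. The 6 endothelial markers, none of which had enough counts to be tested, summed to 0.116 to 0.194 CPM in control libraries and 0.667 to 1.58 CPM in FK228+YF libraries, and their part in the Klf2 counts was not tested.

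The 4 Sin3-binding members split: Klf13 fell in every treated group, Klf11 rose where FK228 was present, Klf10 fell with the combination, and Klf9 rose with FK228 alone. Klf13 (gene 50794; chr7:63886351-63938915), a regulator of the chemokine gene Ccl5 in T cells, stood at 37.6, 55.9 and 59.0 CPM in the control. It stood at 22.6, 29.0 and 33.6 CPM with FK228, 28.8, 27.0 and 32.4 CPM with YF, and 21.6, 22.7 and 24.3 CPM with both. All 9 treated libraries were below the lowest control library, replicate 1, which itself lay well under the other two. The log2 fold change was -0.84 ± 0.17 (SE; adjusted p = 0.00104) with FK228, -0.79 ± 0.17 (adjusted p = 0.00447) with YF and -1.15 ± 0.18 (adjusted p = 8.02e-05) with both. The combined level was 2.23-fold below the control. It was not called below FK228 alone (-0.31, adjusted p = 0.169) or YF alone (-0.36, adjusted p = 0.091). Without control replicate 1 both were called (-0.31, adjusted p = 0.0287, and -0.37, adjusted p = 0.00849), as was the first without FK228 replicate 1 (-0.47, adjusted p = 0.0352). An overlapping gene in the table, E030018B13Rik, had at most 4 counts in any library.

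Klf11 (gene 194655; chr12:24651371-24662782), a TGF-beta-inducible repressor linked to insulin gene control and diabetes, had 7.2, 9.79 and 7.43 CPM in the control and 7.75, 7.78 and 8.65 CPM with YF. FK228 libraries held 10.8, 10.2 and 12.4 CPM, and FK228+YF libraries 10.9, 10.4 and 12.7 CPM. The 6 libraries with FK228 were all above the 6 without it. The rise was 0.45 ± 0.13 (SE; adjusted p = 0.00356) with FK228 and 0.48 ± 0.13 (adjusted p = 0.00175) with both, while YF alone gave -0.01 (95% interval -0.28 to 0.25). Adding FK228 to YF gave 0.49 (adjusted p = 0.00158), and adding YF to FK228 gave 0.03 (-0.23 to 0.29).

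Klf10 (gene 21847; chr15:38291464-38300711), the TGF-beta-inducible early gene, was at 46.4, 49.7 and 47.4 CPM in the control, 38.3, 48.3 and 43.1 CPM with FK228, 52.9, 50.5 and 51.2 CPM with YF, and 39.7, 41.8 and 39.6 CPM with both. The FK228+YF libraries lay under all control and YF libraries, and the FK228 libraries, also under all YF libraries, overlapped the control. The fall with both was -0.24 ± 0.07 against the control (SE; adjusted p = 0.00398) and -0.35 ± 0.07 against YF (adjusted p = 0.000169). FK228 alone gave -0.15 (adjusted p = 0.0743), which became -0.22 (adjusted p = 0.0122) without FK228 replicate 2. YF alone gave 0.11 (adjusted p = 0.261), although all 3 YF libraries were above the control.

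Klf9 (gene 16601; chr19:23141226-23168129), induced by thyroid hormone and glucocorticoids, was at 47.1, 46.4 and 42.2 CPM in the control and 47.9, 52.0 and 52.5 CPM with FK228. YF libraries held 42.7, 42.6 and 41.7 CPM and FK228+YF libraries 43.5, 45.7 and 45.7 CPM. The FK228 libraries were the 3 highest of the 12. The rise with FK228 was 0.17 ± 0.06 (SE; adjusted p = 0.0206), and it was not called without control replicate 3 (0.12, adjusted p = 0.123), FK228 replicate 2 (0.16, adjusted p = 0.0502) or FK228 replicate 3 (0.14, adjusted p = 0.0752). The combination gave -0.01 against the control (95% interval -0.14 to 0.12), a value whose sign changed with the scaling.

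Klf15 (gene 66277; chr6:90461043-90491803), the fasting and glucocorticoid-responsive member, fell to a similar level in all 3 treated groups. It had 12.9, 12.1 and 14.1 CPM in the control, 9.26, 8.46 and 9.22 CPM with FK228, 8.38, 8.39 and 9.29 CPM with YF, and 7.13, 9.81 and 7.30 CPM with both. All 9 treated libraries were below the lowest control library, and the treated groups overlapped. The log2 fold change was -0.54 ± 0.12 (SE; adjusted p = 0.000361) with FK228, -0.59 ± 0.12 (adjusted p = 0.000585) with YF and -0.69 ± 0.12 (adjusted p = 1.95e-05) with both. The combination differed from FK228 alone by -0.15 (95% interval -0.41 to 0.11) and from YF alone by -0.10 (-0.36 to 0.15). Without FK228+YF replicate 2, the highest of its group, the first of these was -0.33 (adjusted p = 0.0309).

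Comparing the treated groups with each other asks which genes tell the inhibitor from the mutants. Between FK228 and YF, Klf9 (0.26, adjusted p = 0.00103) and Klf11 (0.46, adjusted p = 0.00333) were higher with FK228, and Klf3 (-0.35, adjusted p = 0.000855) and Klf10 (-0.25, adjusted p = 0.00413) were lower. These are 4 of 9, where 61.2% of all genes differed. The libraries of FK228 and YF did not overlap for the same number of members, 4 of 9, where they did not for 66.8% of all genes. The Klf10 difference was not called without FK228 replicate 1 (-0.15, adjusted p = 0.0744). For Klf5, Klf13 and Klf15, which both single treatments moved the same way, the differences between FK228 and YF were 0.03 (95% interval -0.20 to 0.26), -0.05 (-0.44 to 0.34) and 0.05 (-0.20 to 0.30). Adding YF to FK228 lowered 2 of 9 (Klf3 and Klf9) and raised none, where 52.9% of all genes changed (26.6% higher and 26.3% lower), and the libraries did not overlap for 3 of 9 against 60.1% of all genes. The Klf9 value was -0.18 (adjusted p = 0.0219) and was not called without FK228 replicate 2 (0.0514), FK228 replicate 3 (0.0724) or FK228+YF replicate 1 (0.0786). Over the 12 libraries left out in turn, the number of members called in that comparison ran from 1, without FK228 replicate 2, FK228 replicate 3 or FK228+YF replicate 1, to 4, without FK228 replicate 1. Adding FK228 to YF raised Klf11 and lowered Klf3 and Klf10, 3 of 9, where 70.6% changed (34.7% higher and 35.9% lower), and the libraries did not overlap for 6 of 9 against 75.3% of all genes.

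The interaction asks whether the effect of FK228 differed with and without YF. Each value is the log2 change of FK228+YF against YF, less that of FK228 against the control. Hdac1 stood at 402 CPM in YF and 798 CPM in FK228+YF libraries, against 97.7 CPM in the control and 110 CPM with FK228. The level of the mutants may therefore differ between YF and FK228+YF libraries. Its part in the interaction, and in FK228+YF against YF, was not tested. Klf3 and Klf5 passed the test, both downward, 2 of 9 where 26.5% of all genes passed (15.3% downward). For Klf3 the value was -1.12 ± 0.11 (SE; adjusted p = 1.01e-06), larger in size than for 93.8% of all genes tested. The single effects of Klf3 summed to 0.18, and the combination gave -0.94. For Klf5 the value was -0.64 ± 0.16 (adjusted p = 0.0053). Its single effects summed to 1.41 and the combination gave 0.77. Both calls held in all 18 alternative fits of the interaction. Klf15 and Klf13 also lay short of their sums (-0.69 for a sum of -1.13, and -1.15 for a sum of -1.63), without passing the test (0.44 ± 0.17, adjusted p = 0.0613, and 0.48 ± 0.25, adjusted p = 0.19). Klf15 was called without FK228+YF replicate 1 (0.52, adjusted p = 0.0379) or replicate 3 (0.50, adjusted p = 0.0481), and Klf13 without control replicate 1 (0.65, adjusted p = 0.00765). Klf10 was called without FK228 replicate 1 (-0.30, adjusted p = 0.0226). For Klf11 the interaction was 0.04 (95% interval -0.33 to 0.42).

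**Figure D3:**
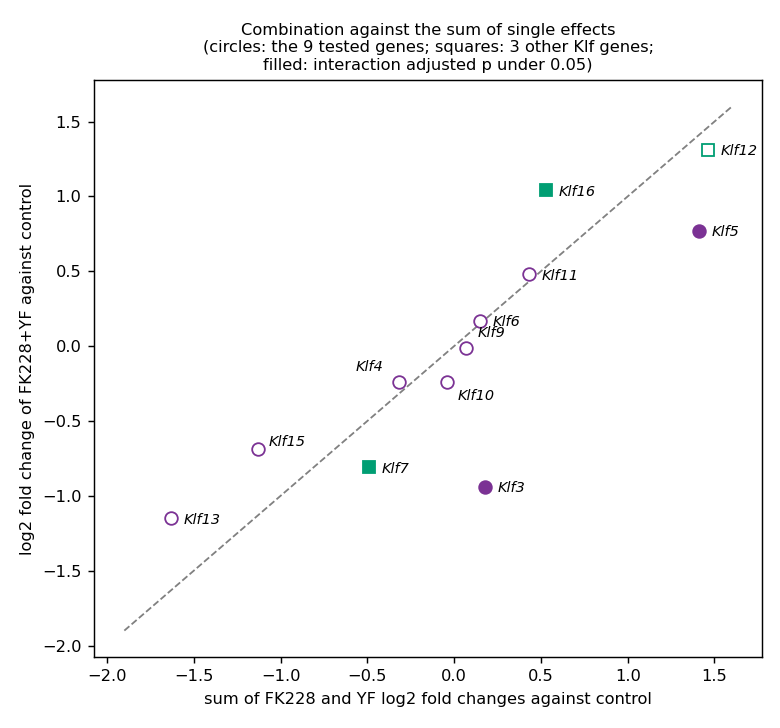
Log2 fold change of FK228+YF against the control (vertical axis) plotted on the sum of the FK228 and YF log2 fold changes (horizontal axis) for the 9 tested genes (circles) and 3 other Klf genes (squares). The dashed line marks equality, and filled symbols have an interaction adjusted p under 0.05. Klf3 and Klf5 lie below the line, at -0.94 for a sum of 0.18 and 0.77 for a sum of 1.41, and Klf16 lies above it at 1.04 for a sum of 0.53.

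These differences changed the make-up of the family's mRNA. Summed over the 10 genes, the level was 109 ± 7.04 TPM (SD, n = 3) in the control, 102 ± 13.1 with FK228, 123 ± 4.38 under YF and 89.9 ± 5.07 under the combination. Klf3 made up 27.8 ± 3.61% of the sum in the control, 33.3 ± 0.318% with YF and 18.6 ± 1.29% with both. Klf6 took the first place in FK228+YF libraries (23.0 ± 1.16% of the sum and 20.6 ± 1.61 TPM, against 16.7 ± 1.16 TPM for Klf3), and the libraries of the 2 genes did not overlap. The share of Klf5 was 5.92 ± 0.713% in the control and 11.8 ± 1.25% with both, and that of Klf13 was 8.68 ± 2.24% and 4.57 ± 0.176%. Klf10 held 17.6 ± 1.05% and 17.5 ± 0.613%. Shares sum to a whole, so a fall in Klf3 raises the shares of the others by construction, and no test was made on them.

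**Figure D4:**
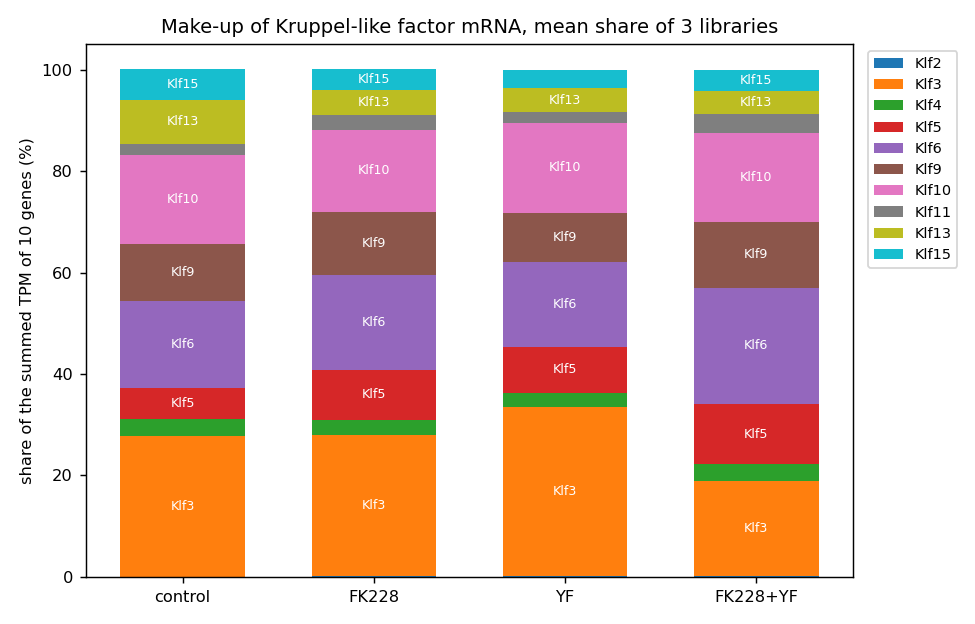
Share of the summed TPM of the 10 genes taken by each gene (vertical axis, percent), as the mean of 3 libraries in each group (bars). The Klf3 segment narrows from 27.8% in the control to 18.6% in FK228+YF libraries, while the Klf5 segment widens from 5.92% to 11.8%.

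Of the 7 other Klf genes in the table, 5 could be tested. Klf7, a relative of Klf6, fell with each treatment and furthest with both. It stood at 33.0, 35.6 and 32.9 CPM in the control, 27.8, 28.6 and 31.4 CPM with FK228, 25.3, 29.5 and 28.3 CPM with YF, and 18.1, 18.4 and 21.2 CPM with both. The FK228+YF libraries were below all others (-0.81 against the control, adjusted p = 1.07e-08). Its smaller change with FK228 (-0.21, adjusted p = 0.0253) was called in 12 of 19 alternative fits, missing in 4 of them through the scaling, the filter, the tool or the libraries fitted (adjusted p = 0.0515 to 0.0625) and in 3 through a left-out library: control replicate 2 (0.092), FK228 replicate 1 (0.123) or FK228 replicate 2 (0.0966). The change with YF (-0.29, adjusted p = 0.00864) was lost without YF replicate 1 (0.061).

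Klf12, which like Klf3 recruits CtBP, stood at 1.32, 2.2 and 1.28 CPM in the control and 4.38, 4.00 and 3.57 CPM with both, with 2.61, 2.91 and 2.73 CPM under FK228 and 2.61, 2.90 and 2.17 CPM under YF. It rose by 1.31 on the log2 scale with both (adjusted p = 5.71e-06) while Klf3 fell. Per length, Klf12 was near the floor, at 0.05 TPM in the control and 0.253 TPM with both. Klf2 stood at 0.02 and 0.197 TPM and Klf3 at 30.5 and 16.7 TPM in these groups. The rise of Klf12 differed in size between CPM and TPM, and the reason was not tested. The rise with FK228 was 0.78 (adjusted p = 0.00278). That with YF was 0.68 (adjusted p = 0.0187), and it was not called without control replicate 1 (0.0703), control replicate 3 (0.0958) or YF replicate 2 (0.0788).

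Klf16, a Sin3-binding relative of Klf9 and Klf13, stood at 11.4, 10.1 and 12.1 CPM in the control, 14.9, 13.2 and 14.1 CPM with FK228, 12.4, 12.8 and 13.4 CPM with YF, and 22.2, 24.8 and 22.2 CPM with both. The FK228+YF libraries were far above all others (1.04, adjusted p = 9.17e-10), and the interaction was 0.51 (adjusted p = 0.00592), the reverse in sign of that for Klf3. Klf1 and Klf8, both under 1 CPM on average, were not called against the control, and Klf14 and Klf17 were not tested. Among the 9 related Sp genes, 6 were tested, and with both treatments 1 rose (Sp4, 0.46) and 2 fell (Sp1, -0.33, and Sp2, -0.34), 3 of 6 where 77.4% of all genes changed.

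**Figure D5:**
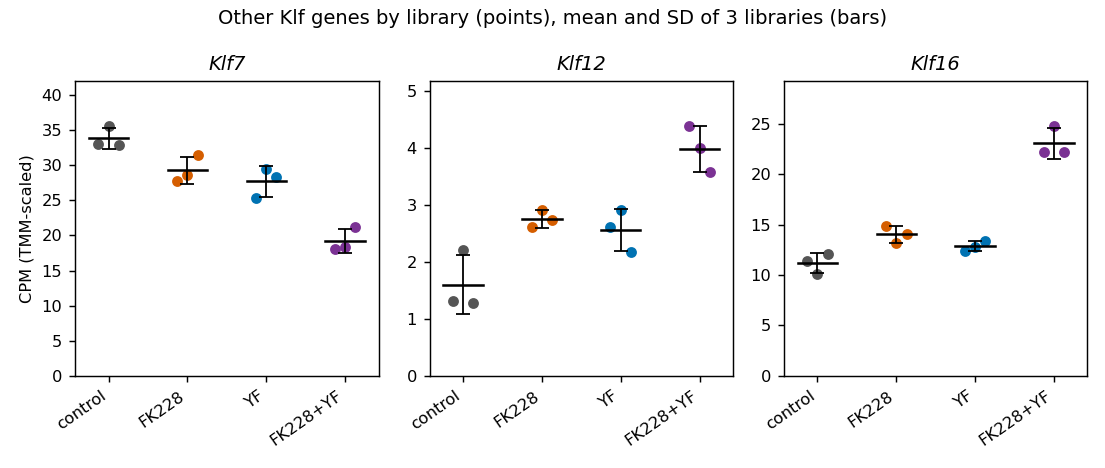
Level of Klf7, Klf12 and Klf16 in CPM (vertical axis, TMM-scaled counts, from 0) in the 12 libraries by group. Points are libraries and bars are the mean and SD of 3. In FK228+YF libraries Klf7 is lowest (18.1 to 21.2 CPM) and Klf12 and Klf16 are highest (3.57 to 4.38 and 22.2 to 24.8 CPM).

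Genes that act with or on the family were taken from short lists of textbook members, described by counts only. Of 10 cofactors, 8 fell with FK228, 5 with YF and 8 with the combination, where 35.5%, 14.6% and 38.6% of all genes fell, and 1 rose, with the combination (Sin3a, 0.15, adjusted p = 0.023, named after its value was seen). Their median log2 fold change was -0.36, -0.17 and -0.72. The YF count was 3 without control replicate 3. Crebbp, which encodes the acetyltransferase CBP, was at 17.5 ± 4.32 CPM in the control and 6.48 ± 0.442 CPM with both (SD, n = 3; -1.44 ± 0.15, adjusted p = 4.77e-08). Kat2b, which encodes the acetyltransferase PCAF, was at 32.1 ± 1.93 and 9.17 ± 0.572 CPM (-1.81 ± 0.09, adjusted p = 1.21e-13). The CtBP genes, partners of Klf3, also fell with both: the log2 fold change was -0.87 for Ctbp1 and -0.79 for Ctbp2, which were named after their values were seen.

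Of 6 ubiquitin ligases that act on these factors, all were called with the combination, 2 higher and 4 lower, against 2 with FK228 and 3 with YF. The shares called over all genes were 77.4%, 68.8% and 32.6%. Fbxw7, whose product marks Klf5 for degradation, rose with both (0.77 ± 0.12, adjusted p = 5.43e-06), and Siah1a, whose product acts on Klf10, fell (-0.85 ± 0.10, adjusted p = 1.45e-07). The YF count was 0 without control replicate 2. Of 11 tested upstream regulators, 2 rose and 5 fell with both, where 38.8% and 38.6% of all genes did. The TGF-beta receptor gene Tgfbr1 was at 228 ± 18.4 CPM in the control, 134 ± 12.7 with FK228, 161 ± 11.6 under YF and 54.1 ± 4.05 under the combination (-2.07 ± 0.08 for the combination, adjusted p = 7.66e-15). The ligand gene Tgfb1 rose with both (0.78, adjusted p = 5.78e-06).

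Other genes induced by the signals known to induce members moved in both directions. Over all genes, 33.2% rose and 35.5% fell with FK228, 18% and 14.6% with YF, and 38.8% and 38.6% with both. Among 11 early TGF-beta genes, 6 rose and 3 fell with FK228, 4 rose and 5 fell with YF, and 4 rose and 5 fell with both. With both, Ccn2 rose (2.57 on the log2 scale), and Skil (-1.17), Tgif1 (-0.87), Ski (-0.85), Smad7 (-0.62) and Id2 (-0.60) fell, the last 5 named after their values were seen. In the same comparison Klf10 had -0.24 and Klf11 0.48. Among 9 tested glucocorticoid targets, 5 rose and 2 fell with FK228, 5 rose and 1 fell with YF, and 6 rose and 2 fell with both. Mt2 rose by 4.16 and Dusp1 by 2.33 with both. Tsc22d3, named after its values were seen, fell in all 3 treated groups (-0.66 with FK228, -0.62 with YF and -1.27 with both). Fkbp5, also named after its values were seen, rose in all 3 (0.61, 0.26 and 0.67). Per1 rose with FK228 (1.06) and with both (1.34). Cebpd fell with both (-0.85) and rose with YF (0.75). Among 17 immediate early genes, 8 rose and 5 fell with FK228, 6 rose and 1 fell with YF, and 9 rose and 3 fell with both. Fos was at 1.08 ± 0.153 CPM in the control, 47.8 ± 5.15 with YF and 130 ± 6.0 with both.

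Of 21 textbook targets of the family, 17 could be tested, and 10 rose and 6 fell with both treatments, where 38.8% and 38.6% of all genes did. Slc2a4, the glucose transporter gene known as a Klf15 target in muscle, was at 0.219 ± 0.0448 CPM in the control, 2.22 ± 0.148 with FK228, 1.5 ± 0.674 under YF and 6.95 ± 1.12 under the combination. Aass, a lysine-breakdown enzyme gene, also rose with both (3.77 ± 0.29, adjusted p = 1.05e-10). Summed over the 3 control libraries, Slc2a4 had 17 counts and Aass 20. Klf15 fell in the groups where these 2 genes rose, and its part in their levels was not tested. Ccnb1, the mitotic cyclin gene, was at 91.0 ± 8.01 CPM in the control, 14.1 ± 0.386 with FK228, 87.9 ± 10.3 under YF and 8.76 ± 1.98 under the combination. With the filter of 5 CPM in 3 libraries, 10 of the list could be tested and all 10 were called with the combination, 6 higher and 4 lower. Slc2a4 reached 5 CPM only in FK228+YF libraries (5.65 to 7.63 CPM), so the filter kept it through the group where it was high. The share of all genes called under this filter is not given, and the count of 10 is no sign of a change in the list.

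Genes outside the family were ranked by how close their 3 log2 fold changes against the control lay to those of each member, as a distance over 10180 genes at 5 CPM or more. The closest to Klf3 was Slco2a1, a prostaglandin transporter gene, at a distance of 0.133 (-0.05 with FK228, 0.15 with YF and -0.88 with both), then Kcnab1 (0.165). Klf5 lay nearest to Kdelr3, an endoplasmic reticulum retrieval receptor gene (0.0959), and Atg3 (0.121). Klf13 lay nearest to Tmem170b (0.101) and Zfp26 (0.162). Klf15 lay nearest to Rlim, a ubiquitin ligase gene (0.0329), and to Glul, which encodes glutamine synthetase (0.0432). The nearest to Klf11 were Gde1 (0.0214) and Ypel3 (0.0359), and to Klf10 they were Sh3bp2 (0.0305) and Snrnp35 (0.0341). The nearest to Klf9 were Itfg2 (0.0205) and Ccdc58 (0.0294). Klf6 had Dhx57 (0.0243) and Zdhhc17 (0.027), and Klf4 had Zfp24 (0.019) and Cdk12 (0.0214). Members with small changes lie among many genes with small changes, so their distances are smaller.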

How the data were processed

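RNA from 12 AML12 libraries was sequenced as paired-end reads of 100 bases on a BGISEQ platform, per the labels' protocols. The authors deposited 1 table with estimated counts and TPM per gene and library. RSEM 1.2.12, the aligners HISAT2 2.0.4 and Bowtie2 2.2.5, the build GRCm38.p6 and DESeq2 1.4.5 are listed, without roles, per the submitters' processing notes. Of the deposited estimated counts, 16.6% were not whole, and they were rounded. Depth was 23664436 to 26122987 counts per library, and intervals from counts cover counting error only.

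The members, gene lists and tests were chosen with earlier results of these data known. All 12 libraries were fitted with 1 term per group in edgeR 4.0.16 (R 4.3.3; TMM scaling, filterByExpr, robust quasi-likelihood test), which left 13346 of 19037 genes. P-values were Benjamini-Hochberg adjusted over these for each of 7 comparisons, with a threshold of 0.05. The method was also run on simulated data, in which far fewer genes changed than were called here. That simulation cannot show whether the scaling holds where as many genes change as in these data. CPM are on TMM-scaled library sizes. TPM values are as deposited by the authors, without TMM scaling. They were used to compare genes, and for the sums and shares of the 10 members in each group. The text names all 10 members, the other Klf and Sp genes, the class I deacetylase genes, genes from the other lists, drawn from the 2 called ones per comparison with the largest change at 1 CPM or more unless stated, and the 2 nearest genes by distance. One gene that this rule selects is not reported here. Alternatives were limma-voom (limma 3.58.1), DESeq2 1.42.0, RLE scaling, every gene kept, a minimum of 5 CPM in at least 3 libraries, only the compared groups, a replicate block, and each library left out. Replicates of a group differed by more than sampling noise. Promoters came from a RefSeq table of the same build, and Klf5 and Klf10 had no entry. Each gene's position and overlaps come from RefSeq.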

Additional observations from a re-analysis of the deposited data

Results flagged for a closer look

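For 5 genes of the family and its Sp relatives, the effect of FK228 differed between cells with and without YF. The test was the interaction term of the edgeR fit (adjusted p under 0.05). These were 2 of 9 members, 1 of 6 Sp genes, and 1 higher and 1 lower among 5 other Klf genes. Over all genes tested 26.5% passed, so the number called is not far from the background. The difference was -1.12 for Klf3 (adjusted p = 1.01e-06): FK228 left its level near the control without YF, and lowered it with YF. It was -0.64 for Klf5 (adjusted p = 0.0053): FK228 raised it without YF and gave no detectable further change with YF. It was 0.51 for Klf16 (adjusted p = 0.00592), whose rise with FK228 was 0.33 without YF and 0.84 with it. It was -0.32 for Klf7 (adjusted p = 0.045), and the call was kept in 10 of 18 alternative fits. It was 1.77 for Sp8 (adjusted p = 0.0227), which had 24, 22 and 27 counts in the control libraries and 9, 3 and 6 with FK228, and 13, 18 and 25 with YF and 21, 12 and 14 with both. The Sp8 call was kept in 13 of 17 alternative fits. Hdac1 stood at 402 CPM in YF and 798 CPM in FK228+YF libraries, and the part of this in the values for these genes was not tested.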

How the results depend on the processing

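The 63 member values (9 tested genes in 7 comparisons) were refitted under 1188 alternatives. In 1131 the direction and the side of the threshold were kept, in 12 a call was lost, in 19 one was gained, and in 26 the sign changed. All 12 losses came from leaving out 1 library. Every value whose sign changed was uncalled in the chosen fit and in that alternative. The combination against the control gave 0.01 for Klf9 with RLE scaling, 0.04 with the filter of 5 CPM and 0.01 with DESeq2. With 1 library left out, it ran from -0.06 to 0.02. Under the same omissions FK228 against the control ran from -0.17 to 0.03 for Klf3, and YF against the control from -0.1 to 0.14 for Klf11. FK228+YF against FK228 ran from -0.12 to 0.02 for Klf4, -0.04 to 0.15 for Klf5 and -0.06 to 0.11 for Klf11. FK228+YF against YF ran from -0.01 to 0.18 for Klf5 and from -0.42 to 0.1 for Sp8. FK228 against YF ran from -0.02 to 0.1 for Klf5 and -0.19 to 0.12 for Klf13. The interaction ran from -0.04 to 0.05 for Klf6 and -0.11 to 0.13 for Klf11. The number of members called for FK228+YF against FK228 was 2, and 1 to 4 with 1 library left out; the cause was not tested.

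Same-numbered libraries did not deviate together (18 correlations from -0.215 to 0.089). In 8 of 36 comparisons with another group, a library matched best with its own number. No pairing by number was seen, but deviations within 3 libraries a group cannot exclude that same-numbered libraries were prepared together. With the replicate block, Klf13 was also called for FK228+YF against FK228 (-0.3, adjusted p = 0.026), against YF (-0.36, adjusted p = 0.00554) and in the interaction (0.47, adjusted p = 0.0264), and no other member's call changed. Fitting only the compared groups likewise gained Klf13 against FK228 (adjusted p = 0.0341) and YF (adjusted p = 0.00051). RLE scaling, the filter of 5 CPM and DESeq2 each gained Klf6 for FK228+YF against YF (0.15, 0.16 and 0.15). At 3 libraries a group, differences the size of those of Klf4, Klf6 and Klf9 lay at the edge of what the test could call, and Klf2 lay under the counts it needs.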
